A study of Mus musculus with 16 samples.

Results

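The genes described are Cyp2f2, Abcb1b, Sgk2, Aard, Ibsp, Mgst2, Ms4a10 and Mapk13, 8 of the 18193 genes with a probe set on the arrays. They were picked because their signal was much lower in embryonic adrenal glands without Dicer and the genotypes did not overlap, so the knockout differences below say how they were chosen and carry no test. All 8 passed the filter on dim signals, which 13644 genes passed. For Cyp2f2, Sgk2 and Ibsp the filter was passed through control arrays alone: on 8, 8 and 7 control arrays and on 0 knockout arrays.

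Adrenals of C57BL/6 embryos were pooled by genotype within litters and measured on Affymetrix Mouse430_2 arrays, 4 pools each of controls and knockouts (KO) at embryonic days E15.5 and E16.5, 16 arrays in all. The KO genotype is Sf1-Cre/Dicer lox/lox, in which Cre is driven from Sf1 regulatory sequence. Controls were Cre-negative littermates, which the labels call WT; the parents were of the genotypes Sf1-Cre/Dicerlox/lox, Dicerlox/lox and Sf1-Cre/Dicer+/lox, so controls can carry floxed alleles too. The gland is mixed tissue, and fewer cortical cells in a pool cannot be told apart from less RNA per cell.

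Dicer cuts hairpin precursors into mature microRNAs, which in turn repress messenger RNAs that carry matching sites. Sf1, a nuclear receptor encoded by Nr5a1, is active in the steroid-producing cells of the adrenal cortex, so the deletion falls in those cells and leaves blood vessels, macrophages and most of the medulla outside its reach. The genes here make no pathway. They encode a cytochrome P450 (Cyp2f2), a microsomal glutathione transferase (Mgst2), a drug efflux pump (Abcb1b), a pair of protein kinases (Sgk2, Mapk13), a secreted bone matrix protein (Ibsp), a membrane protein with several spans (Ms4a10) and a protein rich in alanine and arginine (Aard).

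The stretches of 250 bases just before the annotated start are shown for Cyp2f2, which kept the smallest share of its control signal at E16.5, for Abcb1b, which passed a test between the days in KO, and for Ibsp, whose arrays scattered most at E16.5. They are RefSeq sequence of build GRCm38.p6 on the plus strand, 5′ to 3′, at chr7:27119705-27119954, chr5:8797897-8798146 and chr5:104299037-104299286. Capitals mark matches to the motifs searched on both strands: AAGGTCA (a motif that Sf1 and related receptors can bind), the CCAAT box, the TATA box motif TATAAA, and the GC box motif GGGCGG.
Cyp2f2: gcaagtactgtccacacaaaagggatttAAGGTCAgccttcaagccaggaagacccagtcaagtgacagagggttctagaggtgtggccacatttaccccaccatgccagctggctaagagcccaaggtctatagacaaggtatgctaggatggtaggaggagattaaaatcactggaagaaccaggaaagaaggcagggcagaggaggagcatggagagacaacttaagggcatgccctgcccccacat
Abcb1b: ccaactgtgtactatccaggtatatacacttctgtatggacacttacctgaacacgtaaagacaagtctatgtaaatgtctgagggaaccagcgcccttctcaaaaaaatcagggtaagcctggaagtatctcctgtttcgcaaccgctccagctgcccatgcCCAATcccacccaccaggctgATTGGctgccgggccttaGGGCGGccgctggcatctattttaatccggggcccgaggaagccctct
Ibsp: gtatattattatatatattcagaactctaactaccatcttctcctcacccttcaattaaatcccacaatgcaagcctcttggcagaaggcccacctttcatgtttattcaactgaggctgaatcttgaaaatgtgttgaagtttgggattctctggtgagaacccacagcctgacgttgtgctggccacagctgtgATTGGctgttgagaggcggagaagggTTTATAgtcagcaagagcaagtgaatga

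Counting back from the start, Cyp2f2 held AAGGTCA at −222 to −216 and none of the other motifs. Abcb1b held CCAAT at −87 to −83 and, on the opposite strand, at −66 to −62, with a GC box at −48 to −43. Ibsp held a CCAAT box on the opposite strand at −54 to −50 and the TATA box motif, also on the opposite strand, at −28 to −23. Of 32851 RefSeq windows of the same length, 4.08% held AAGGTCA, 33.8% a CCAAT box, 12.4% the TATA box motif and 32.7% the GC box motif. RefSeq windows matched 6 of the 8 genes. The Mgst2 window, at chr3:51660929-51661178, lies inside the span of the gene and not before it, so its positions count back from an internal start. It held a CCAAT box at −62 to −58 and overlapping TATA box matches on both strands between −34 and −27. The windows of Mapk13 and Ms4a10 overlap the edge of their genes' spans. Mapk13 held 4 GC boxes, and no match was found in Ms4a10. Counts of the dinucleotide CG were 0 in Cyp2f2, Mgst2 and Ms4a10, 2 in Ibsp, 9 in Abcb1b and 25 in Mapk13. A match is a description of letters and not of a binding site.

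Values are log2 signals, in which a step of 1 is a doubling. A difference, KO minus control, is followed by its standard error (SE) from the linear model of the whole table, and the signal left in KO is the same difference written as a percentage of the control signal. Probe sets differ in brightness, so the level of a gene is not set against that of another; its place among the probe sets of the same array is given as a percentile instead. An adjusted p is from limma with the Benjamini-Hochberg adjustment over all genes tested, two-sided, with 0.05 as the threshold below which a gene is said to pass.

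Of the whole table, 5.86% of genes passed between genotypes at E15.5, 503 upwards and 297 downwards, and 10.5% at E16.5, 954 upwards and 485 downwards. These splits depend on scaling: they became 373 to 350 and 606 to 570 after quantile normalization, and 276 to 372 and 447 to 609 when each array was centred at its 75th percentile. Dicer1 was 8.59 ± 0.07 (SD, n = 4) in controls and 8.23 ± 0.16 in KO at E15.5 (adjusted p = 0.0638), and 8.62 ± 0.16 and 8.26 ± 0.14 at E16.5 (adjusted p = 0.0414). Whether its probe set lies in the deleted part is not known from the sources used here, so these values are a weak check of the labels. In control E16.5 replicate 2 the actin probe sets differed by 3.05 between their 3′ and 5′ ends, against 0.365 to 1.74 on the other 15 arrays, a measure of RNA quality and labelling. E16.5 values without that array are given where they bear on a result.

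At E15.5 all 8 genes had 4 KO values below the 4 control values, which 4.7% of all genes tested had. At E16.5 this held for 7 of the 8, against 4.76% of all genes, and Ibsp was the exception. The median difference of the 8 was −1.98 at E15.5 and −2.40 at E16.5, beside 0.07 and 0.08 over all genes tested. Because the genes were chosen on these contrasts, the counts and medians describe the choice and nothing is read from them. Among genes that passed with non-overlapping genotypes, 282 (2.07%) were lower at E15.5 and 432 (3.17%) at E16.5. By size of the difference, the tenth place at E15.5 was Cyp11b2, the aldosterone synthase (−1.82), with Tmem35a (−1.81) just outside, Mgst2 (−1.85) just inside, and Ms4a10 and Mapk13 at places 12 and 24. At E16.5 Mapk13 (−2.33) took the tenth place and Agtr1b, an angiotensin receptor (−2.05), the next, with Mgst2 at place 16 and Abcb1b at 35.

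**Figure D1:**
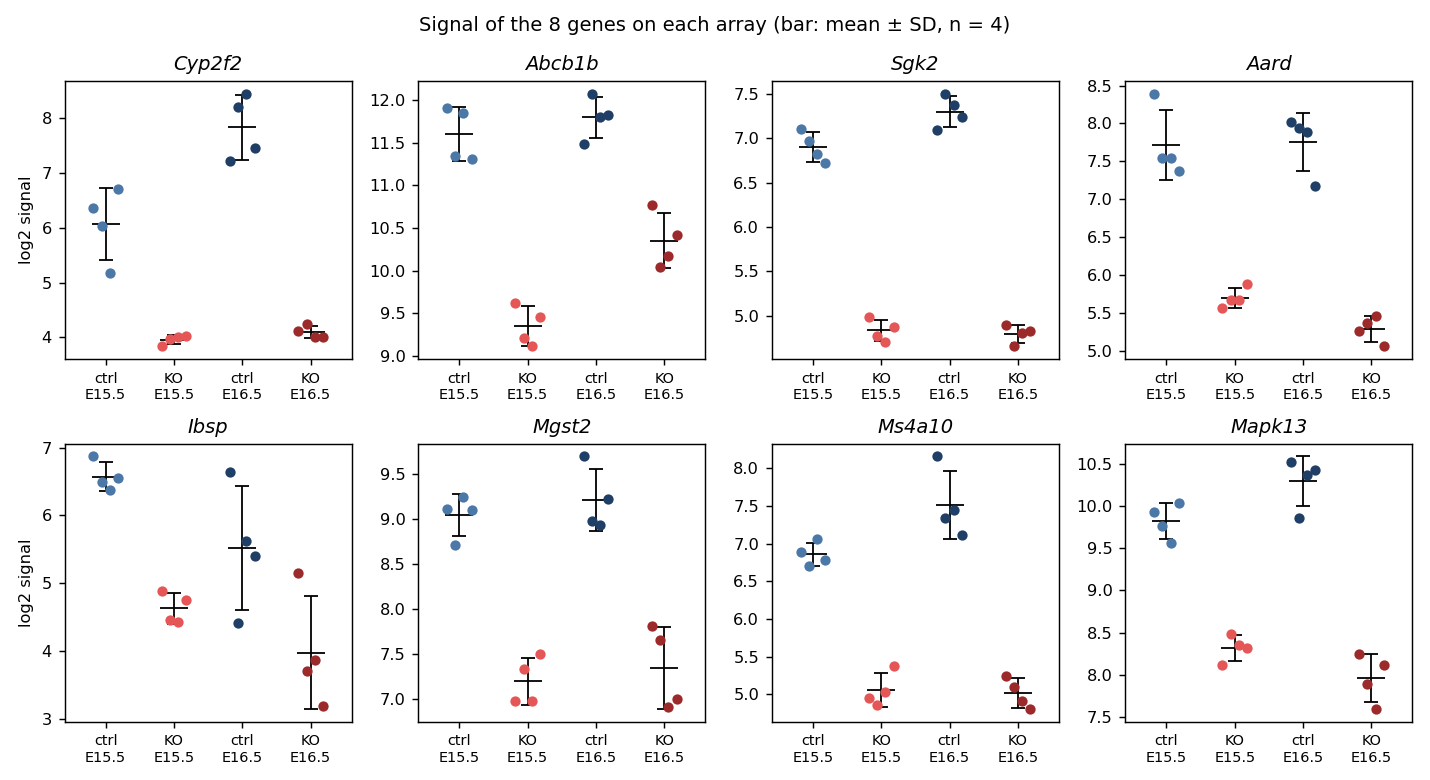
Log2 signal of each gene on each array (1 panel a gene; points are arrays, bars the mean ± SD of 4). Control and KO points are apart in every panel at E15.5, and at E16.5 in all panels but that of Ibsp, where a control at 4.40 lies under a KO array at 5.14.

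Cyp2f2 encodes a monooxygenase best known from the club cells of the airway and also found in liver (chr7:27119955-27133660, GRCm38.p6). Its control values were 6.36, 6.03, 5.17 and 6.70 at E15.5 and 7.21, 8.21, 8.45 and 7.46 at E16.5. The KO values were 3.84, 3.96, 4.01 and 4.02 at E15.5 and 4.12, 4.24, 4.01 and 4.01 at E16.5. Controls scattered by up to 1.53 within a stage, while all 8 KO arrays lay between 3.84 and 4.24. Means were 6.06 ± 0.66 (SD, n = 4) and 3.96 ± 0.08 at E15.5, a difference of −2.11 (SE 0.28). At E16.5 they were 7.83 ± 0.59 and 4.09 ± 0.11, a difference of −3.74, or −3.61 without control replicate 2. KO glands kept 23.2% and then 7.50% of the control signal. The KO signal stood between percentiles 15.2 and 23.7 of its arrays, among the dimmest probe sets, so these percentages include the array's background and are not a measure of transcript left.

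Mgst2 encodes a membrane-bound transferase that conjugates glutathione and can make cysteinyl leukotrienes (chr3:51636912-51682675). Controls read 9.12, 8.71, 9.25 and 9.11 at E15.5 and 9.70, 8.99, 8.94 and 9.23 at E16.5. In KO the values were 6.97, 7.34, 6.98 and 7.50, then 7.81, 7.65, 6.91 and 7.00. The groups were separate at each stage, with the KO pools of E16.5 split between higher (replicates 1 and 2) and lower values. The difference was −1.85 (SE 0.22) at E15.5 and −1.87 at E16.5, which left 27.8% and 27.4%. All 8 KO arrays were above the filter, between percentiles 61.9 and 71.7.

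Abcb1b encodes a P-glycoprotein, a pump that expels drugs and lipophilic molecules from cells (chr5:8798147-8866314). Its probe set was bright, between percentiles 96.6 and 98.3 of the control arrays. Control values were 11.91, 11.35, 11.85 and 11.31 at E15.5 and 11.48, 12.08, 11.80 and 11.83 at E16.5. KO values were 9.62, 9.21, 9.11 and 9.46 at E15.5 and 10.77, 10.04, 10.17 and 10.42 at E16.5. The KO glands thus stayed well above background at both stages, and every KO value of E16.5 lay above every KO value of E15.5. The difference was −2.25 (SE 0.18) and then −1.44, or −1.35 without control E16.5 replicate 2. Signal left was 21.0% at E15.5 and 36.7% at E16.5. A second, dim probe set of Abcb1b gave −1.20 and −1.26, with group means of 5.18 and 3.99 at E15.5 and 5.26 and 4.00 at E16.5.

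Sgk2 encodes a serine/threonine kinase related to the glucocorticoid-induced kinase Sgk1 (chr2:162987327-163014139). Controls were 7.11, 6.97, 6.83 and 6.72 at E15.5 and 7.09, 7.50, 7.37 and 7.24 at E16.5. KO arrays read 4.99, 4.78, 4.70 and 4.87, then 4.89, 4.65, 4.80 and 4.82. The spread was small in every group, with SDs of 0.10 to 0.18, and the KO groups lay over each other. Differences were −2.07 (SE 0.11) and −2.51, which left 23.8% and 17.6%, with the KO signal between percentiles 31.2 and 36.8 and so near background.

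Mapk13 encodes p38 delta, a stress-activated kinase (chr17:28769286-28778704). Control values were 9.93, 9.76, 9.56 and 10.04 at E15.5 and 10.52, 9.86, 10.36 and 10.42 at E16.5. Values in KO were 8.12, 8.48, 8.35 and 8.31 at E15.5 and 8.25, 7.89, 7.60 and 8.11 at E16.5. The signal in KO remained between percentiles 69.1 and 78.4, far from the floor. The difference was −1.51 (SE 0.16) and then −2.33, so 35.2% and 19.9% of the control signal was left.

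Ibsp encodes bone sialoprotein, an integrin-binding phosphoprotein of mineralised matrix (chr5:104299287-104311472). Control values at E15.5 were 6.87, 6.49, 6.38 and 6.55, and at E16.5 they were 6.64, 4.40, 5.63 and 5.39. In KO they were 4.89, 4.45, 4.42 and 4.75, then 5.14, 3.70, 3.87 and 3.18. The E16.5 groups scattered widely, and control replicate 2, the lowest control, lay below KO replicate 1, the highest KO array, so the genotypes overlapped. The difference was −1.94 (SE 0.40) at E15.5 and −1.54 at E16.5, where leaving out control replicate 2 made it −1.91 and leaving out control replicate 1 made it −1.17. The E16.5 signal left was 34.3%, from 26.2% to 44.5% with 1 array left out. A further probe set, above the filter on 0 arrays, gave −0.56 and −0.73.

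Ms4a10 encodes a membrane protein of the family that includes the B cell antigen CD20 (chr19:10962289-10974724). Controls measured 6.88, 6.71, 7.06 and 6.78 at E15.5 and 8.16, 7.34, 7.44 and 7.12 at E16.5. KO arrays measured 4.95, 4.86, 5.03 and 5.38, then 5.24, 5.10, 4.92 and 4.80. Every E16.5 control lay above every E15.5 control, whereas the KO groups overlapped. Differences were −1.80 (SE 0.18) and −2.50, which left 28.7% and 17.7%, and 2 of 8 KO arrays were above the filter.

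Aard encodes a protein described in the Sertoli cells of the testis (chr15:52040107-52045722). Control values were 8.39, 7.54, 7.55 and 7.37 at E15.5 and 8.02, 7.94, 7.89 and 7.18 at E16.5. The KO values were 5.57, 5.67, 5.67 and 5.89, and then 5.26, 5.37, 5.47 and 5.06. Here the KO arrays of E16.5 all lay below those of E15.5. The difference was −2.01 (SE 0.21) at E15.5 and −2.46 at E16.5, and 24.8% and 18.1% of the signal was left, with 7 of 8 KO arrays above the filter.

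**Figure D2:**
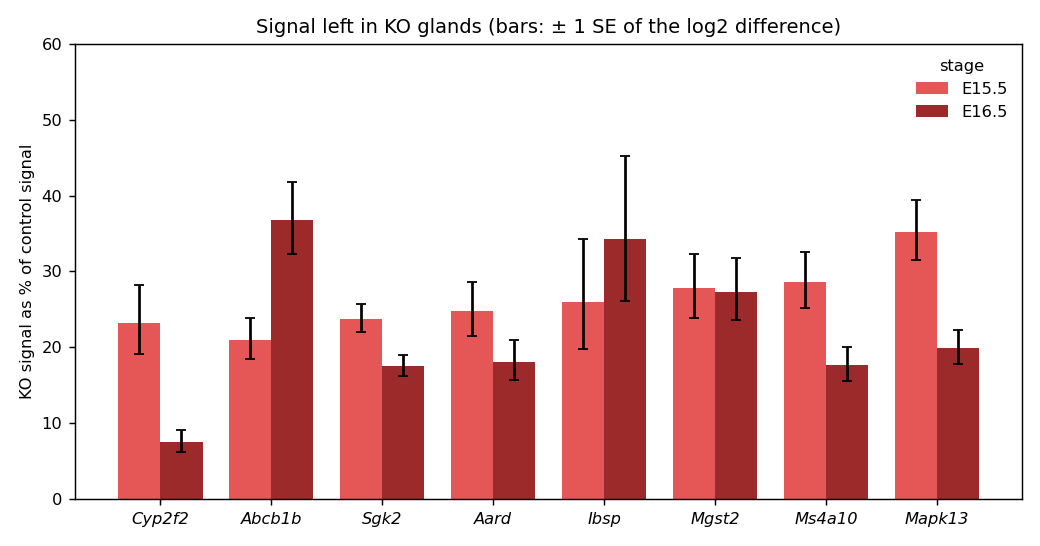
KO signal as a percentage of the control signal for each gene at E15.5 and E16.5 (bars, with whiskers of ± 1 SE of the log2 difference). Cyp2f2 goes from 23.2% to 7.50% and Abcb1b from 21.0% to 36.7%, while Mgst2 stays at 27.8% and 27.4%. The second Abcb1b probe set, which is not drawn, gave 43.6% and 41.8%.

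Between the stages the difference widened in 5 genes, by −1.63 in Cyp2f2, −0.82 in Mapk13, −0.70 in Ms4a10, −0.45 in Aard and −0.44 in Sgk2. It moved by −0.02 in Mgst2, and on the kept probe sets it was smaller at E16.5 by 0.81 in Abcb1b and by 0.40 in Ibsp. The second, dim probe sets did not show this, with −1.20 and then −1.26 for Abcb1b and −0.56 and then −0.73 for Ibsp. With an array left out the E16.5 difference of Ibsp on its kept probe set ran from −1.93 to −1.17. For Cyp2f2, Sgk2 and Ms4a10 the KO signal moved by 0.14, −0.04 and −0.04 between the days, against 1.77, 0.40 and 0.66 in controls. Their wider differences thus follow the controls, with KO signals near background, where a further fall is hard to see. These shifts rest on the contrasts that chose the genes and are given without a test. The day changes within a genotype, which make up the shifts, were tested over the whole table, although the same arrays had entered the choice.

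In controls Cyp2f2 rose from E15.5 to E16.5 by 1.77 (SE 0.28, adjusted p = 0.0254), 3.41-fold, with all 4 values of the later stage above the earlier 4. It was the 1 gene of the 8 that passed upwards, beside 0.044% of all genes tested (6 genes). In limma 0 of the 8 passed downwards, as 0.0513% of all genes did. The call was lost without control E15.5 replicate 1 (adjusted p = 0.111), 2 (0.0906) or 3 (0.123) and without control E16.5 replicate 2 (0.0562) or 3 (0.108), and with only the control groups in the fit (0.332). With the replicate number as a block the adjusted p was 0.0584. The increase itself was between 1.47 and 1.98 whichever array was left out. In KO glands Cyp2f2 differed by 0.14 between the days (adjusted p = 0.954). The KO signal stood between percentiles 15.2 and 23.7, near background, where a fall or a small rise is hard to see.

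The other control changes over the day did not pass. Ms4a10 differed by 0.66 (adjusted p = 0.22), Mapk13 by 0.47 (adjusted p = 0.367) and Sgk2 by 0.40 (adjusted p = 0.22). Of these Ms4a10 had non-overlapping days with E16.5 higher, as 2.31% of all genes did. Abcb1b differed by 0.20, Mgst2 by 0.17 and Aard by 0.04, and Ibsp by −1.06 (adjusted p = 0.44), or −0.68 without control E16.5 replicate 2. At an unadjusted p under 0.05 there were 5 of the 8, beside 7.85% of all genes. Cyp2f2, Ms4a10, Mapk13 and Sgk2 were higher at E16.5 and Ibsp was lower. The median change of the 8 was 0.30 against 0.01 over all genes.

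In KO glands Abcb1b rose over the day by 1.00 (SE 0.18, adjusted p = 0.0134), 2.00-fold, and was again the 1 gene of the 8 that passed, beside 0.872% of all genes tested upwards and 0.0293% downwards. Its days did not overlap, which 5.53% of all genes showed in that direction. The adjusted p was 0.0635 without KO E15.5 replicate 2 and 0.0501 without replicate 3. The second Abcb1b probe set, at the dim end in KO, changed by 0.01 (adjusted p = 0.998), so the rise rests on the brighter probe set. Aard differed by −0.41 (adjusted p = 0.582) and Mapk13 by −0.35 (adjusted p = 0.506). Days did not overlap for Aard, lower at E16.5, as for 2.24% of all genes. Ibsp differed by −0.66 (adjusted p = 0.682), and the remaining 4 genes lay between −0.04 and 0.15. Of those, Cyp2f2 and Sgk2 were above the filter on 0 KO arrays and Ms4a10 on 2, so small changes are hard to see there. At an unadjusted p under 0.05 there were 2 of the 8, Abcb1b higher and Mapk13 lower, beside 9.51% of all genes. The median of the 8 was −0.04 and that of all genes 0.01.

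**Figure D3:**
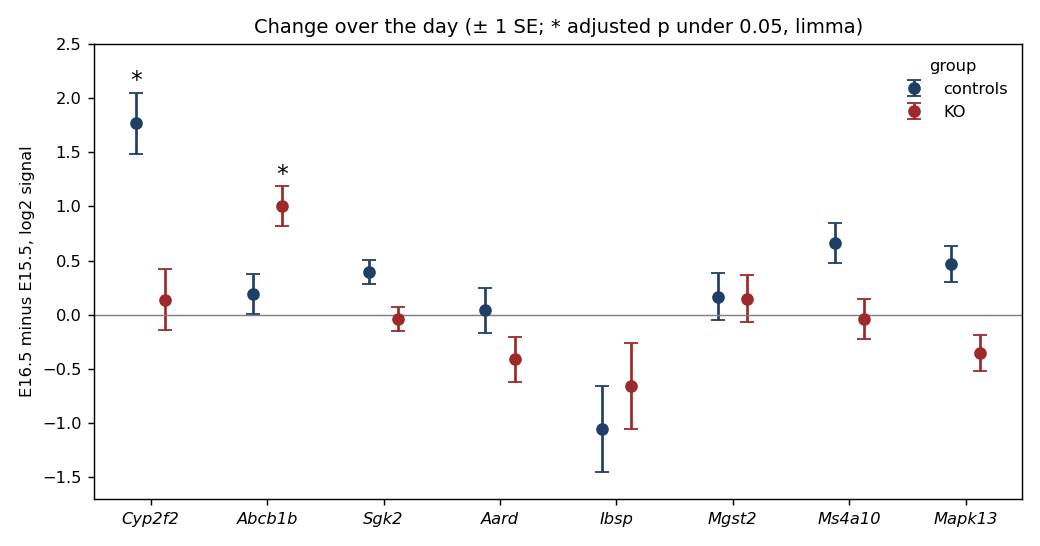
Change in log2 signal from E15.5 to E16.5 for each gene, in controls and in KO (points with ± 1 SE). Stars mark the changes that passed, Cyp2f2 in controls (1.77) and Abcb1b in KO (1.00).

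The genes whose array-by-array pattern was most like each of the 8 were found from the root mean square difference between log2 values centred on each gene's own mean, over 16 arrays and 13643 other genes. Hao2, a peroxisomal oxidase of hydroxy acids, was nearest to Mgst2 (0.26) and to Mapk13 (0.27) and next nearest to Sgk2 (0.32). Its means were 12.24 and 10.56 at E15.5 and 12.34 and 10.35 at E16.5, controls first. Mapk13 was also near Tmem35a (0.31). The rule also named some of the 8. Sgk2 and Aard were named for each other (0.32), as were Mgst2 and Ms4a10 (0.32). In 1 direction only, Sgk2 was named for Ms4a10 (0.33) and Ms4a10 for Aard (0.37).

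Abcb1b lay nearest to Ptprz1, a receptor tyrosine phosphatase, and Eppk1, epiplakin (0.41 each). The difference of Ptprz1 was −1.54 at E15.5 and −1.43 at E16.5, and that of Eppk1 was −1.42 and −1.61. Cyp2f2 and Ibsp had no close neighbour. Cyp2f2 was 0.66 from Frzb, a secreted Wnt antagonist (−2.76 and −2.70), and 0.69 from Sgk2. Ibsp was 0.64 from Fbp1, an enzyme of gluconeogenesis, and 0.67 from Prss35. The farthest pair among the 8 was Cyp2f2 and Ibsp, at 1.40. These distances are descriptions, since all 8 share the difference between genotypes by choice.

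Relatives of the 8 genes, except Aard, were taken from lists of their families or pathways, to see whether the loss extended to them. No list was made for Aard. In the P450 list, of 11 genes tested, 0 passed at E15.5 in limma (0 at an unadjusted p under 0.05; median 0.04) and 1 at E16.5, Cyp4b1 (0.44, adjusted p = 0.0215; median 0.15). The Cyp4b1 call was lost in 4 of 8 fits that left out an array and under either other scaling. P450s that make corticosteroids were left out of this list, and some of them were lower in KO. Cyp11b1 differed by −0.94 and −1.58 and Cyp11b2 by −1.82 and −2.93, and both passed at each stage. Cyp21a1 differed by −0.82 and −1.09 and passed at E16.5 only, while Cyp11a1 (−0.33 and −0.37) did not pass. Cyp2a12, next to Cyp2f2 on chromosome 7, differed by 0.24 and 0.09, neither of which passed.

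Among 16 ABC transporters Abcb1a, the closest paralog of Abcb1b and its neighbour 49572 bases before it, was lower at both stages, by −1.01 (SE 0.23, adjusted p = 0.012) and then by −0.77 (adjusted p = 0.0396). The E16.5 call was lost in 5 of 8 fits without an array and the E15.5 call in 0 of 8. Probe sets of such similar genes can take up each other's transcript, and how far they did was not tested. Abcb4, 27300 bases on the other side, differed by −0.18 and 0.03 and did not pass. At E16.5 the cholesterol exporter Abcg1 (0.84) and the conjugate pump Abcc3 (0.82) rose. The list's medians were 0.09 and 0.13.

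In the list of Sgk kinases, their activators and substrates (12 tested), Sgk3 rose at both stages, by 0.61 (adjusted p = 0.00727) and then by 0.76 (adjusted p = 0.000886), while Sgk1 differed by −0.18 and −0.15 and did not pass. Nr3c2, the mineralocorticoid receptor, was lower by −0.58 at E16.5, a call lost in 5 of 8 fits without an array. The p38 list (15 tested) had 1 gene higher at E15.5, the phosphatase Dusp10 (0.36), whose call was lost in all 8 such fits and under either other scaling, and 0 at E16.5 in limma (3 at an unadjusted p under 0.05; 1 lower under either other scaling). Mapk14, the p38 alpha gene 20881 bases before Mapk13, differed by −0.05 at each stage and did not pass.

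The list of glutathione enzymes and their membrane-bound relatives (20 tested) held 2 genes that fell and 1 that rose at E15.5, and 3 and 1 at E16.5, with medians of 0.02 each. Of all genes tested, 2.18% fell and 3.69% rose at E15.5, and 3.55% and 6.99% at E16.5. Gstk1, a mitochondrial and peroxisomal transferase, fell by 0.81 and by 0.93, and Mgst1, a bright relative of Mgst2, fell by 0.52 (adjusted p = 0.00158) and by 0.46 (adjusted p = 0.00248). Ptges, a prostaglandin E synthase, rose by 0.55 and 0.56. The calls of Gstk1 at E15.5 and Ptges at E15.5 were each lost in 6 of 8 fits without an array, while those of Mgst1 were lost in 0 of 8 at either stage.

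Of 7 Ms4a genes tested besides Ms4a10, 3 rose at E15.5 and 5 at E16.5, and 0 fell. Of all genes tested, 3.69% were higher in KO at E15.5 and 6.99% at E16.5. Ms4a6d rose by 0.86 and 1.41, Ms4a7 by 0.87 and 1.36 and Ms4a4c by 0.60 and 0.62. The E15.5 call of Ms4a7 was lost in 7 of 8 fits without an array. The list's median was 0.36 and then 0.75, opposite in sign to Ms4a10 (−1.80 and −2.50). Macrophage markers moved the same way: 5 of 9 were higher in KO at E15.5 and 9 of 9 at E16.5, and their mean ran from 7.97 to 8.71 in E16.5 controls and from 9.30 to 9.84 in KO. The E15.5 count was 3 under either other scaling and 3 to 6 with an array left out, at 3 without any 1 of the control replicates or without KO replicate 3 or 4, and the E16.5 count was 9 in each of these. Their part in the Ms4a result was not tested. Ms4a15, 3579 bases from Ms4a10, differed by −0.01 and −0.05 and did not pass.

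In the list of bone phosphoproteins and integrins the 6 genes tested were integrin subunits and other matrix genes. The listed phosphoproteins of the family of Ibsp fell below the filter or had no kept probe set, so they were not tested. Of the 6, 0 passed at E15.5 in limma (2 at an unadjusted p under 0.05) and 1 at E16.5. That was the integrin subunit Itgav (0.60), a call lost in 4 of 8 fits without an array and with centred arrays. The 2 osteoblast markers tested, Sp7 and Alpl, did not pass at either stage, with group means of 6.10 to 6.32 and 5.20 to 5.34.

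**Figure D4:**
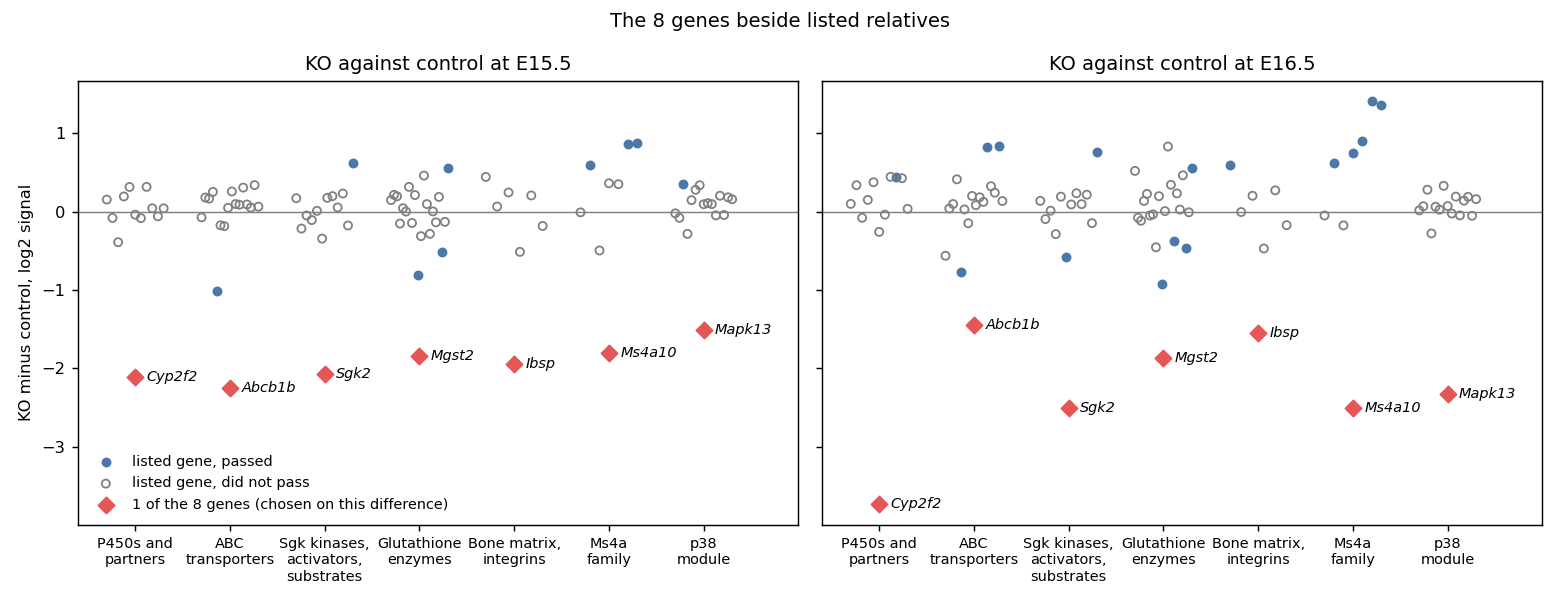
KO minus control (log2 signal) at E15.5 and E16.5 for each family or pathway list. Listed genes are circles, filled where they passed, and the 8 genes are diamonds, except Aard, which had no list and is not drawn. The diamonds lie between −1.44 and −3.74, while list medians run from 0.02 to 0.75.

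On the chromosome, the nearest tested gene on each side of the 8 was taken, 16 neighbours in all. Abcb1a passed at E15.5, and Abcb1a and Ccdc86 (−0.50, adjusted p = 0.045, beside Ms4a10) at E16.5. The Ccdc86 call was lost in 6 of 8 fits without an array. The other 14 did not pass at either stage.

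Markers of the cells a pool could hold give the setting of these losses. The cortex markers were bright on every array, with a mean of 12.83 to 13.24 in controls and 12.56 to 13.01 in KO at E15.5, and of 12.92 to 13.22 and 12.39 to 12.78 at E16.5. Of 10 tested, 2 were lower at E15.5 and 5 at E16.5, beside 2.18% and 3.55% of all genes, and the rest did not pass. The list's medians were −0.23 and −0.39, and the largest fall was that of the corticosterone-making enzyme Cyp11b1 (−0.94 and −1.58). The part of cortical cell number in the 8 losses was not tested. The E15.5 count was 1 after quantile normalization, where Hsd3b1 was lost (adjusted p = 0.0718), and 4 with centred arrays. It was 1 when KO replicate 2 or 4 or control replicate 1, 2 or 4 was left out and 4 when KO replicate 3 was, while the E16.5 count was 4 to 6 with an array left out. Of 7 liver markers 0 passed at either stage in limma (0 at an unadjusted p under 0.05 at each). Their mean ran from 6.39 to 9.90 in controls and from 6.83 to 9.71 in KO at E15.5. At E16.5 it ran from 7.29 to 10.06 in controls and from 6.13 to 10.65 in KO. The part of liver tissue in the signal of Cyp2f2 was not tested.

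For the other cell types the markers were few. Of the club cell markers 1 could be tested, Aldh1a7, which was lower by −0.76 and −0.60 (calls lost in 4 and 5 of 8 fits without an array). Cdh17, 1 of the 2 gut markers tested, was lower by −1.07 (adjusted p = 0.00096) and −0.91, though the gut list as a whole was dim in all groups, with means of 4.36 to 4.79. Of 4 Sertoli cell markers 0 passed at either stage in limma, and 1 had an unadjusted p under 0.05 at each. Chromaffin markers passed in 0 of 9 cases at E15.5 (3 at an unadjusted p under 0.05). At E16.5 they passed in 4, all higher in KO, beside 6.99% of all genes that were higher. That count was 1 to 4 with an array left out, at 1 or 2 when KO replicate 1, 3 or 4 or control replicate 1 or 2 was the one omitted, and was 2 with centred arrays. Of 8 capsule, 7 endothelial and 3 erythroid markers 0 passed at either stage, with 0 at an unadjusted p under 0.05 at E15.5 and 0, 2 and 1 at E16.5. Of the kidney tubule markers 0 passed the filter.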

How the data were processed

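The values were log2 signals deposited by the authors as a normalized table of 45101 probe sets. The submitters' processing notes name RMA and limma, without versions. RMA compresses dim signals, which understates differences near background. Probe sets with a single symbol (34945; 932 had several, 9160 none) named 18193 genes, and the set with the highest mean over 16 arrays was kept. Genes above their array's 40th percentile on at least 4 arrays (13644) were fitted with limma 3.58.1 (R 4.3.3, the data.table package, 1.17.8): means for 4 groups, eBayes, Benjamini-Hochberg over all genes. The number of arrays limits precision (median SE 0.139). On simulated data with 200 of 13644 genes changed, 82% to 90% of changes of log2 1 were recovered, depending on the comparison. Of the calls, 2.07% to 6.09% were false. The simulated noise was independent between genes and arrays, with no litter effect and no poor array, so recovery in the real data can be lower. Figures were drawn with matplotlib 3.10.9 in Python 3.11.15.

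The 8 genes and all lists were chosen with earlier results of these data known. Other genes named were, by rule, up to 3 passing genes per list, chromosomal neighbours, the 2 nearest patterns and the ranks around the tenth fall; Sgk1 was chosen after its values were seen. Pools came from 4 litters per stage, and the replicate numbers are not stated to mark a litter. Deviations of same-numbered control and KO arrays correlated at −0.39 to 0.39 at E15.5 and −0.20 to 0.45 at E16.5. This did not show which pools shared a litter, so the numbers were not taken as pairs. Control and KO pools came from shared litters, but the main fit leaves litter out, so its SEs and adjusted p ignore that pairing. Alternatives covered scaling, filter, array weights, samples fitted, a replicate block, other probe sets and leaving out arrays.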

Additional observations from a re-analysis of the deposited data

Results flagged for a closer look

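Among the 32 groups of 4 arrays checked for the 8 genes, 1 had an array far from the rest: Aard in control E16.5 replicate 4 read 7.18, with the other 3 at 7.89 to 8.02. The gap filled most of the group's range, past Dixon's 95% critical value for 4 samples. Chance gives about 1 such group in 20. All 4 KO values of Aard at E16.5 lay below it.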

How the results depend on the processing

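For each of the 8 genes the difference between genotypes stayed negative under every alternative. Each shift was set against the replicate spread. Leaving out 1 of 4 arrays cannot move a difference by more than that spread, so nothing is read from those 128 values. At E16.5 Ibsp still ran from −1.93 to −1.17 among them. Of 114 others 111 moved by less, but a change of filter, of groups fitted or the replicate block leaves a difference of group means as it was. The exceptions were the second probe sets at E15.5, −1.20 for Abcb1b and −0.56 for Ibsp, and −4.29 for Cyp2f2 at E16.5 with arrayWeights, where 5.10% of its signal was left. Genes passing between genotypes at E15.5 numbered 800, against 1688 without the filter, 414 with a 60th percentile filter and 1350 with arrayWeights. At E16.5 they numbered 1439, against 2355, 899 and 4938, and 817 with only the 2 groups compared; leaving out an array gave 588 to 666 and 935 to 1705. For the day in controls the 13 genes became 8 with the stricter filter, 1103 with arrayWeights and 0 with only the 2 groups compared (828 at an unadjusted p under 0.05 in limma), and 0 to 19 with an array left out (902 to 1428 unadjusted). For the day in KO the 123 genes became 435 with arrayWeights, 73 with only the 2 groups compared and 53 to 146 with an array left out. The cause was not tested. With the replicate number as a block the counts were 710, 1263, 9 and 110, and of the 8 genes the Cyp2f2 call in controls was lost (adjusted p = 0.0584). Own-numbered arrays correlated best for 2 of 4 controls at E15.5 and 1 of 4 at E16.5. ArrayWeights added day calls in controls for Sgk2 (0.42), Mapk13 (0.58), Ms4a10 (0.59) and Ibsp (−0.93). Some small day changes that did not pass turned sign: Mgst2 with arrayWeights (−0.16 in KO, −0.0471 in controls), and with an array left out Aard in controls (−0.0708 to 0.27) and, in KO, Mgst2 (−0.0082 to 0.29), Ms4a10 (−0.12 to 0.0697) and Sgk2 (−0.0857 to 0.0092). The stricter filter leaves no value for Ibsp. KO signals near background set a limit for Cyp2f2, Sgk2, Ibsp and Ms4a10, where a loss can be larger than measured.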
